A study of Arabidopsis thaliana with 50 samples.

Results

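Cytosolic ribosomal protein genes were taken from a leaf transcriptome study of Arabidopsis thaliana accession Col-0 as every gene whose description in the authors' deposited table names a 40S or a 60S ribosomal protein. The rule found 139 of the 18231 listed genes, 60 for the small (40S) and 79 for the large (60S) subunit. Of these, 132 are protein-coding genes taken here as cytosolic from their descriptions, and which ribosome each protein joins was not tested. They form 67 families, 28 of the small and 39 of the large subunit, and 47 families have at least 2 listed paralogs. The other 7 members go against the label: 4 are annotated as pseudogenes (of L21, L5 and S11) and 3 are of mitochondrial type. The last are RPS10 (AT3G22300) and the L2 and L5 genes AT2G07715 and AT2G07725 on chromosome 2, whose gene spans are 99.8% and 100% identical to the mitochondrial genome of the TAIR10.1 assembly.

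RNA with poly(A) tails was sequenced from apical and from basal leaf parts of plants aged 7 weeks and kept in 8 h of light per day. The 5 lines were wild type, the pp2a-b'γ mutant (b'γ), which is affected in B'γ, a regulatory subunit of protein phosphatase 2A, the pp2a-b'γζ double mutant (b'γζ) that also affects the B'ζ subunit, pp2a-b'γ sid2 (b'γ sid2), in which sid2 is a mutation of ICS1, a gene for salicylic acid synthesis, and a complemented pp2a-b'γ line with P35S:PP2A-B'γ, a constitutive viral promoter before B'γ. All 4 lines other than wild type thus carry the b'γ lesion, and the complemented line is not limited to cells that normally use B'γ. Each of the 10 groups held 5 pools of the parts of 7 leaves, and the labels describe yellowing and cell death in b'γ apical parts and none in b'γ basal parts. Values of the 4 lines are given in one order, b'γ first, then b'γζ, then b'γ sid2 and last the complemented line, called line order.

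Cytosolic ribosomes join a small subunit, which reads the messenger, to a large subunit, which makes the peptide bond, and each ribosome needs its proteins in like numbers. In Arabidopsis nearly all of these proteins are made from small families of paralogous genes. Transcription of the set is known to be high in dividing and growing cells and to depend in part on short promoter elements called site II and telo-box, and the set lies downstream of the nutrient-sensing TOR kinase. Leaf senescence is known to include the loss of ribosomes, those of the chloroplast in particular.

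All values of single genes below are from the authors' deposited table: log2 fold changes that set a line's apical parts against those of wild type, and p-values over all 50 libraries for genotype, for leaf part and for their interaction. The same wild-type pools enter all 4 comparisons, so a shift in those pools would move all 4. Every listed gene has a corrected genotype p under 0.05, so being listed is no result about a member, and members outside the list were not analysed here. Values per library, levels and depths were not used here. No SD between pools can be given, and no overlap of groups can be read. The genotype and interaction p-values of a gene do bound its residual variance. The standard error (SE) of a line difference is therefore given as the smallest and the largest that they allow, and a gene is said here to have risen or fallen if its difference passes a contrast test with the largest SE, adjusted by Benjamini-Hochberg over the 25801 genes the authors tested ("the largest-error test"). The variance rests on all 50 libraries, with 40 degrees of freedom and an equal spread in all groups assumed. If the pools of a group, such as b'γ apical parts, spread more, the SE of its differences could exceed the largest given here. Equal spread was not tested. A gene whose differences lie mostly in the apical parts has a wide bound and can fail this test at a large difference. The labels name no plants behind each pool, so p-values measure the spread between these pools. A lower share of a cell type in a leaf part and less RNA per cell cannot be told apart in such pools.

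The state of the tissue stands beside all of these values. SAG12, a protease gene of senescing leaves, was at 13.02, -0.02, -0.02 and 0.14 in line order (log2, authors' deposited table). PR1, a defence gene, was at 8.43, 0.80, -4.32 and -0.12 in line order. LHCB2.2 (LHCB2), a light-harvesting gene, was at -2.06, -2.27, -2.64 and -2.48 and fell in all 4 lines, the complemented line included (largest adjusted p of 0.00244). RBCS1A, for the small subunit of Rubisco, was at -0.67, 0.13, 0.65 and 0.21, with 0 of the 4 values past the largest-error test. B'γ itself was at -0.69, -0.46, -0.72 and 0.35, and B'ζ (AT3G21650) was at -0.40, -2.59, -0.51 and -0.26, past the test in the 3 mutants. The part of tissue state in the ribosomal protein values was not tested.

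The ribosomal protein genes stayed much closer to wild type than other listed genes did. In b'γ their log2 fold changes had a median of -0.0038, with quartiles of -0.18 and 0.12, while all listed genes had a median of 0.02 and quartiles of -0.65 and 0.63. In b'γ, 71.2% of the members lay within 0.25 log2 units of wild type, against 20.7% of all listed genes. In b'γζ it was 132 of 139 members against 56.3%, in b'γ sid2 71.9% against 46.7%, and in the complemented line 87.8% against 59.0%. These shares describe the set and carry no test. Genotype p chose the list, so a gene with a large SE tends to be listed only at a large difference. The median smallest SE was 0.0722 for members and 0.119 for all listed genes, and the median largest SE was 0.156 and 0.419. The part of this choice in these shares, and in the 2-fold shares below, was not tested.

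**Figure D1:**
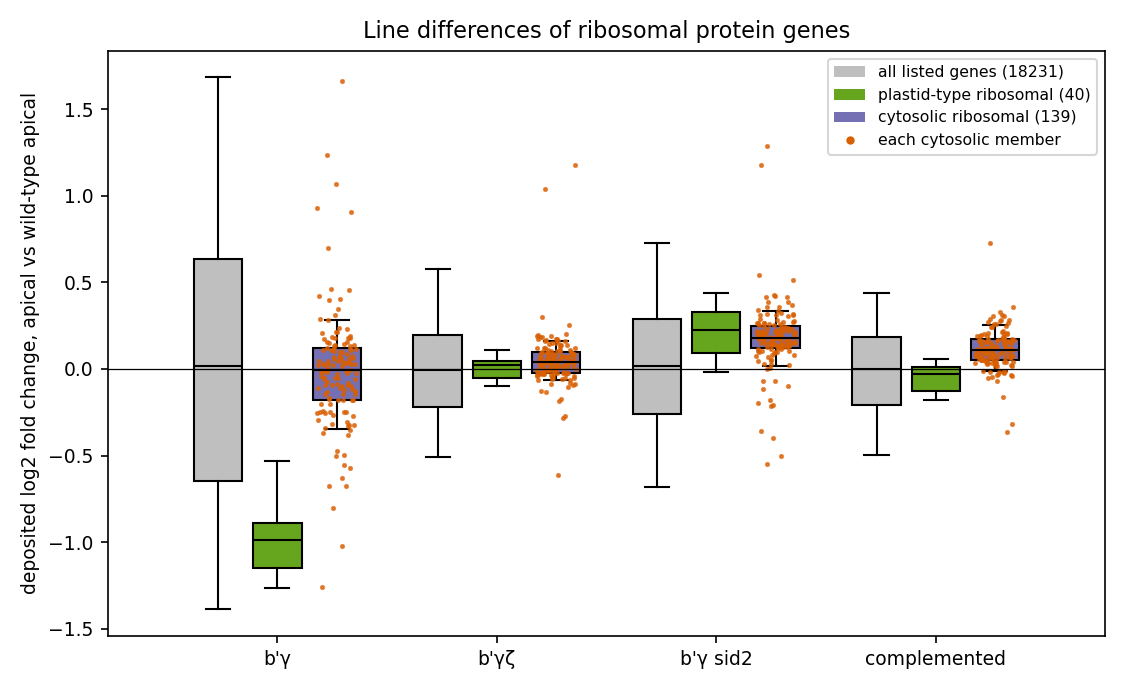
Deposited log2 fold change against wild type in apical parts (y axis) in the 4 lines (x axis) for all 18231 listed genes, the 40 plastid-type and the 139 cytosolic ribosomal protein genes. Boxes span the quartiles with the median, whiskers run from the 10th to the 90th percentile of genes and points are single cytosolic members; in b'γ the plastid-type box lies near -0.98 and the cytosolic one near 0.

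Few members reached a 2-fold difference (1 or more log2 units in either direction). In b'γ 3 members were at least 2-fold higher and 2 at least 2-fold lower, which is 3.60% of members, where 33.2% of all listed genes passed this limit (17% higher and 16.2% lower). In b'γζ 2 members passed it, both higher, beside 7.61% of listed genes (4.69% higher and 2.92% lower). In b'γ sid2 again 2 passed, both higher, beside 12.1% (6.55% higher and 5.56% lower). In the complemented line 0 members passed it, beside 4.85% of listed genes (2.63% higher and 2.22% lower), and the nearest to the limit was the L21 pseudogene AT3G57820 at 0.72. Just outside the limit in b'γ was RPL10B at 0.93, and just inside was S27a-1 at -1.02 (authors' deposited table).

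Small differences of the members leaned to one side in the complemented line and in b'γ sid2, and less so in b'γζ. In b'γ sid2 127 of 139 members (91.4%) were above 0, against 51.8% of all listed genes, with a median of 0.18 and quartiles of 0.12 and 0.25. In the complemented line 123 members (88.5%) were above 0, against 49.4%, with a median of 0.11. In b'γζ 93 members (66.9%) were above 0, against 47.6%, and the median was 0.04. In b'γ 68 members (48.9%) were above 0, against 50.8%. Both subunits showed the same lean: in b'γ sid2 the median was 0.20 for 40S and 0.18 for 60S genes, and in the complemented line it was 0.11 for both. The plastid-type and pathway gene sets described further on leaned the same way in b'γ sid2. Above 0 were 87.5% of 40 plastid-type ribosomal genes, 100% of 10 acidic stalk proteins and 92.9% of 14 translation factors and ribosome-bound proteins. The shares were 76.5% of 17 assembly genes, 100% of 7 TOR signalling genes and 66.7% of 9 initiation factors. In the complemented line these shares, in the same order, were 45%, 80%, 92.9%, 94.1%, 100% and 77.8%. The members' differences are small and depend on the centring. Centred on 6 listed reference genes, the b'γ median became -0.22 and the b'γ sid2 median 0.32. The median of these 6 genes themselves was 0.22, -0.11, -0.14 and -0.02 in line order. Like every listed gene, they were listed by their genotype p, so they are no stable anchor. By the largest-error test UBQ10 rose in b'γ (0.62) and ACT2 in b'γζ (0.47) and b'γ sid2 (0.54), and 0 of the 6 fell in these lines.

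By the largest-error test, 10 members rose and 0 fell in b'γ sid2 (7.19% of members), where 4.95% of all listed genes rose and 5.75% fell. In b'γ 3 members rose and 1 fell, beside 11.9% and 10.9% of listed genes. In b'γζ 2 rose and 0 fell, beside 2.24% and 2.29%. In the complemented line 0 rose and 0 fell, beside 0.719% and 1.6%; its median of 0.11 thus includes no single member past this test. With both the 2-fold limit and this test, 2 members were called in each of the 3 mutants and 0 in the complemented line, beside 14.3%, 1.82%, 5.05% and 0.719% of listed genes in line order. The bound was tighter for members than for other genes, with a median largest SE of 0.156 against 0.419 log2 units.

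Outside chromosome 5, the highest members in b'γ were the 3 listed L10 genes and 1 of the L3 genes. L10 sits between the subunits near the sites where transfer RNA binds; in Arabidopsis RPL10A is also a substrate of the receptor kinase NIK1 in antiviral defence, and RPL10C carries the symbol SAG24, for senescence-associated gene. L3 is a core protein of the peptidyl transferase centre. The sequences just upstream of the annotated starts of these genes are shown because paralogs that make the same protein differ there, along with L31-1 and L30-2, genes described further on. Each is the 150 bases before the transcript start on the gene's strand (TAIR10.1 assembly of RefSeq, matched by locus code, since the files' TAIR10 build gives no coordinates), with site II (TGGGCC or TGGGCT) and telo-box (AAACCCTA) matches on either strand in capitals.
RPL10A: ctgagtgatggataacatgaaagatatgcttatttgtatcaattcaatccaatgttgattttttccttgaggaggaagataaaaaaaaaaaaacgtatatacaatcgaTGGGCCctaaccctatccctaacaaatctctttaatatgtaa
RPL10B: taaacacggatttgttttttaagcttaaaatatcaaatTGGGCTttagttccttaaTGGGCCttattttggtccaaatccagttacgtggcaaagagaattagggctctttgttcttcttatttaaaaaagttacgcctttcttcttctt
RPL10C: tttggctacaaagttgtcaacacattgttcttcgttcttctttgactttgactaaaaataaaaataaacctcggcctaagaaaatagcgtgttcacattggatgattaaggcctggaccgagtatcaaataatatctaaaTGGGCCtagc
RPL3A: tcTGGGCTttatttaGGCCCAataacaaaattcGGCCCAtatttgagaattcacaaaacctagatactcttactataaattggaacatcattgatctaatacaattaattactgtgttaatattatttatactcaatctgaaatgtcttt
RPL3B: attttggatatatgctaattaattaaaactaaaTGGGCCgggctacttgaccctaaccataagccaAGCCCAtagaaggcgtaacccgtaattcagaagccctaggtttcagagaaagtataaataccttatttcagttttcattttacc
L31-1: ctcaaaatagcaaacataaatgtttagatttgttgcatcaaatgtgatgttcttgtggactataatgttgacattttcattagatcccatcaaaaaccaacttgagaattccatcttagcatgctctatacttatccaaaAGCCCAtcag
L30-2: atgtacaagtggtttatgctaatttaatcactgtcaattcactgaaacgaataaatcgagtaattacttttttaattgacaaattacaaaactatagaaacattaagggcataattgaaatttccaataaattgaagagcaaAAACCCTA

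RPL10A (AT1G14320) is at chr1:4887964-4888113 (+), RPL10B (AT1G26910) at chr1:9321500-9321649 (+), RPL10C (AT1G66580) at chr1:24838940-24839089 (+), RPL3A (AT1G43170) at chr1:16266403-16266552 (+), RPL3B (AT1G61580) at chr1:22723153-22723302 (-), L31-1 (AT2G19740) at chr2:8513298-8513447 (+) and L30-2 (AT1G77940) at chr1:29305412-29305561 (-). Of these windows, that of RPL10B reaches 13 bases into a neighbouring annotated gene, and the others reach into none. Site II stood once before RPL10A and RPL10C, 2 times before RPL10B and RPL3B, 3 times before RPL3A and once before L31-1, while the L30-2 window held 1 telo-box and 0 site II matches. A match is a run of letters and was not tested as a binding site.

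RPL10C was at 1.66, -0.06, -0.07 and 0.12 in line order (log2, authors' deposited table). RPL10B was at 0.93, -0.18, 0.10 and -0.02 in line order, and RPL10A at 0.70, 0.05, 0.23 and 0.16. The 3 L10 genes are the whole listed family, and their values stand apart from 0 in b'γ and within 0.25 of wild type in the other lines. RPL3B (ARP2) was at 0.91, -0.09, 0.14 and 0.09, and its paralog RPL3A (ARP1) at 0.14, 0.07, 0.22 and 0.15. None of these b'γ values passed the largest-error test: the adjusted p was 0.310 for RPL10C, 0.286 for RPL10A, 0.962 for RPL3B, 0.558 for RPL3A and 1 for RPL10B, with largest SEs of 0.974, 0.395, 1.43, 0.110 and 3.19 log2 units. The smallest SEs allowed were 0.135, 0.0835, 0.112, 0.0711 and 0.127, so the allowed SE of RPL10B runs from well below its difference to well above it. The authors' interaction of genotype and leaf part was past 0.05 for all 3 L10 genes and RPL3B, with corrected p of 4.09e-08 for RPL10C, 3.15e-05 for RPL10B, 0.00152 for RPL10A and 3.39e-06 for RPL3B. In these genes the line differences therefore depended on the leaf part; which lines and which part carry the interaction is not given by the p-values.

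**Figure D2:**
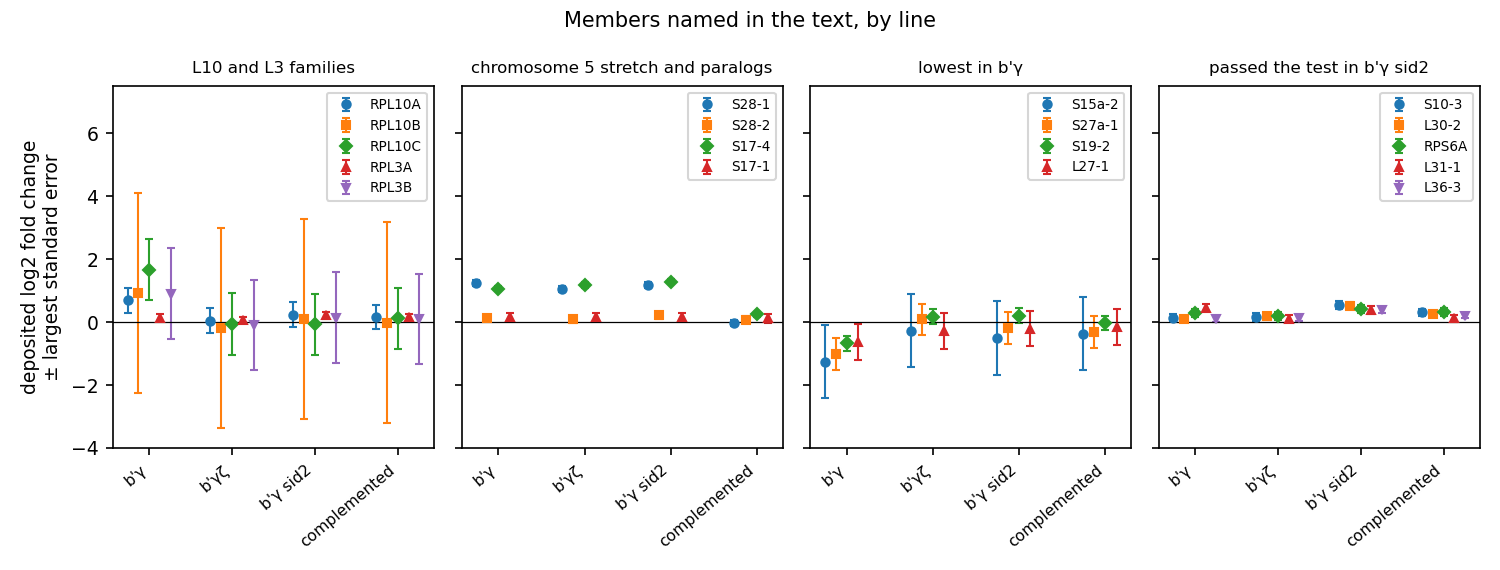
Deposited log2 fold change (y axis) of members named in the text in the 4 lines (x axis), with bars of plus and minus the largest SE that the authors' p-values allow. S28-1 and S17-4 sit above 1 in the 3 mutants and at -0.02 and 0.24 in the complemented line, and the L10 and RPL3B points sit apart from 0 in b'γ with wide bars.

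A pair of 40S genes rose in all 3 mutants and not in the complemented line. S28-1 (AT5G03850), for the small protein S28, was at 1.23, 1.04, 1.18 and -0.02 in line order (SE between 0.0819 and 0.0924). S17-4 (AT5G04800), for S17 of the small subunit, was at 1.07, 1.18, 1.29 and 0.24 (SE between 0.0834 and 0.0900). Both passed the largest-error test in each of the 3 mutants, with adjusted p from 2.06e-13 to 3.62e-11 for S28-1 and from 1.81e-14 to 6.45e-12 for S17-4. The complemented line minus b'γ was -1.26 for S28-1, with an adjusted p of 9.69e-14, and -0.82 for S17-4, with an adjusted p of 5.03e-09, both on the log2 scale. Both lie on chromosome 5, from 1027887 to 1029131 and from 1387909 to 1389887 (TAIR10.1), and are the 2 members in the stretch from AT5G03406 to AT5G05250, which was chosen with earlier results of these data known.

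Their paralogs among the members stayed near wild type. S28-2 was at 0.13, 0.09, 0.21 and 0.07, and S17-1, S17-2 and S17-3 were at 0.16, 0.15 and 0.03 in b'γ and at 0.16, 0.26 and 0.10 in b'γ sid2, with none past the test. The S17 values are uncertain, because the coding sequence of S17-4 is 96.0% identical to that of S17-1, and reads may be shared. S28-1 is 87.7% identical to its nearest copy, AT3G10090, which is not among the members, so no value of that copy is given. Without these genes the 2-fold counts of the 3 mutants were 3, 0 and 0 members in line order.

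Pseudogenes aside, the lowest members in b'γ were genes of 40S families. S15a-2 (rps15ab) was at -1.26, -0.27, -0.50 and -0.36 in line order (authors' deposited table), while both genes described as S15a-1 were at -0.05 and 0.02 in b'γ. S15a-2 is a divergent paralog of its family, with AT4G29430 as its nearest copy (85.1% identical), and whether it serves cytosolic ribosomes was not tested. S27a-1 (AT1G23410), for a ribosomal protein that is made fused to ubiquitin, was at -1.02, 0.08, -0.20 and -0.32, and its paralogs UBQ6 and UBQ5 were at 0.03 and 0.10 in b'γ. Neither passed the largest-error test in b'γ (adjusted p of 0.651 and 0.196). S19-2 (AT5G15520), for S19 of the small subunit, was at -0.67, 0.17, 0.21 and -0.03 with an SE between 0.103 and 0.233. It fell in b'γ, the 1 member to do so, with an adjusted p of 0.0405. It was also higher than in b'γ by 0.85 in b'γζ and by 0.88 in b'γ sid2, with adjusted p of 0.00996 and 0.00534.

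Among the other low members in b'γ were L27-1 at -0.63, L35a-1 at -0.55, RPSAb (Sa-2, the small subunit protein related to the laminin receptor of animals) at -0.50, L13a-4 at -0.50 and the pseudogenes AT1G31355 and AT2G24110 at -0.80 and -0.68. RPSAb was also at -0.36 in b'γ sid2. None of these passed the largest-error test in b'γ. In b'γζ the lowest members were the pseudogene AT1G31355 at -0.61, L27-1 at -0.29 and S15a-2, and after S17-4 and S28-1 the highest were the S11 pseudogene AT2G24110 at 0.30, the mitochondrial-type L5 at 0.25 and S20-2 at 0.20. L37a-2 of the 60S subunit was among the highest members of the 2 last lines, at 0.43 and 0.36, with adjusted p of 0.0920 and 0.531.

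**Figure D3:**
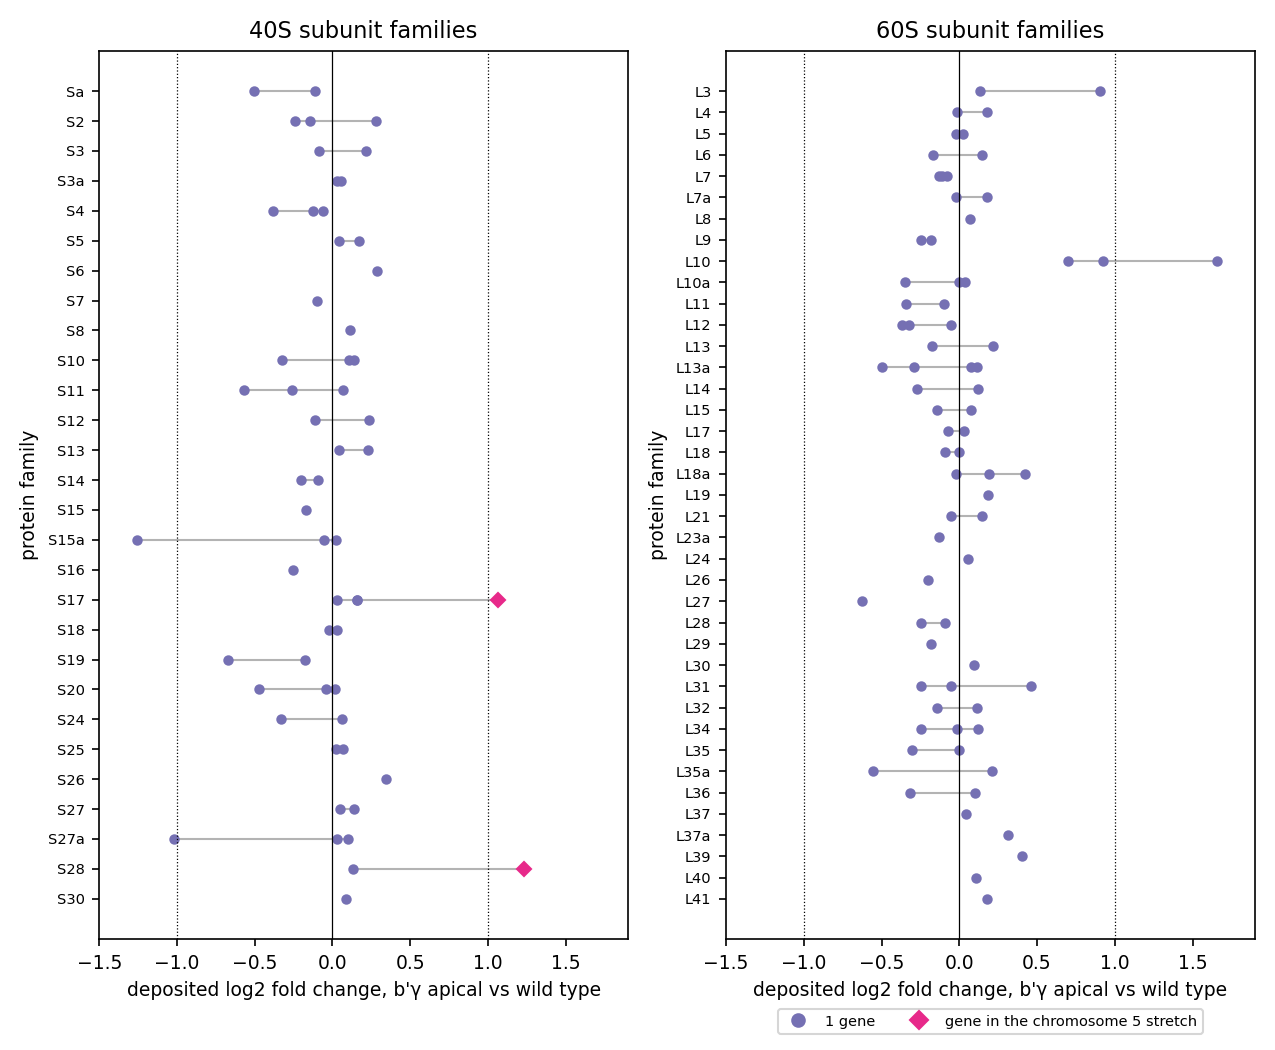
Deposited log2 fold change in b'γ apical parts against wild type (x axis) for the 132 cytosolic protein-coding members by protein family (y axis), with 40S families on the left and 60S families on the right. Points are genes, lines join paralogs, diamonds are the 2 genes of the chromosome 5 stretch and dotted lines mark 2-fold; the widest joined range is S15a at 1.28, and the L10 genes are all between 0.70 and 1.66.

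The ranges between paralogs were wider in b'γ than in the other lines. Over the 47 families with at least 2 listed genes, the median range between the highest and the lowest paralog was 0.32, 0.10, 0.13 and 0.10 log2 units in line order. The range was over 0.5 in 11 families in b'γ, and in 2, 4 and 1 families in the other lines in line order. The widest families in b'γ were S15a at 1.28, S27a at 1.12, S28 at 1.10, S17 at 1.04 and L10 at 0.96, followed by L3 at 0.77, L35a at 0.76 and L31 at 0.71. All listed genes also spread more in b'γ, with an SD over genes of 1.52, 0.56, 0.71 and 0.47 log2 units in line order. The widths were not tested, and noise between pools enters a range. Among families with at least 2 listed genes, the b'γ median was at least 0.5 in size in L10, S28 and L3. S28 and L3 have 2 listed genes each, and their medians rest on 1 high gene. The other gene was at 0.13 in S28 (S28-2) and at 0.14 in L3 (RPL3A), and S28-1 lies in the chromosome 5 stretch.

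Outside chromosome 5, 1 member rose in b'γ, a gene of the L31 family. L31-1 (AT2G19740), a protein at the exit of the peptide tunnel whose upstream sequence is given above, was at 0.46, 0.11, 0.39 and 0.12, with an SE between 0.0772 and 0.119. It rose in b'γ and in b'γ sid2, with adjusted p of 0.00496 and 0.0319. Its b'γζ value minus its b'γ value was -0.35, with an adjusted p of 0.0459. Its paralogs L31-2 and L31-3 were at -0.25 and -0.05 in b'γ.

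In b'γ sid2 the 10 members that rose were S28-1, S17-4, L31-1 and 7 others. L30-2 (AT1G77940), a 60S protein related to archaeal L30e, was at 0.10, 0.19, 0.52 and 0.26 in line order, with an SE between 0.0956 and 0.109. S10-3 (AT5G52650), for S10 near the messenger entry of the 40S subunit, was at 0.14, 0.16, 0.54 and 0.31. Their adjusted p in b'γ sid2 was 0.000748 and 0.000709. RPS6A (AT4G31700), for S6, the substrate of the S6 kinases downstream of TOR, was at 0.29, 0.19, 0.42 and 0.33, and rose in b'γ sid2 with an adjusted p of 0.0341. The other 4 were L36-3 at 0.39, L13a-1 at 0.37, S4-3 at 0.36 and the S15a-1 gene AT5G59850 at 0.31, with adjusted p of 0.00299, 0.0318, 0.0220 and 0.0476. Just outside the threshold were S12-1 at 0.41 and S3a-1 at 0.32, with adjusted p of 0.0513 and 0.0524.

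Set directly against b'γ, b'γ sid2 had 11 members higher and 2 lower by the largest-error test, which is 7.91% and 1.44% of members beside 11% and 12.5% of all listed genes. Those higher were S19-2 (0.88), S11-2 (0.77), L12-1 (0.53), L15-2 (0.46), L30-2 (0.42), S4-3 (0.42), S10-3 (0.40), L4-2 (0.33), S3a-1 (0.30), the S15a-1 gene AT5G59850 (0.29) and L36-3 (0.29), as log2 differences. Those lower were 2 of the 3 mitochondrial-type genes: L2 with a difference of -0.80 and L5 with one of -1.01, at adjusted p of 0.00224 and 0.0492. The third, RPS10, had a difference of 0.23 and did not pass the test. L2 was at 0.40 in b'γ and -0.40 in b'γ sid2, and L5 at 0.46 and -0.55, so their sign was opposite to that of the median member in b'γ sid2. Reads of these genes and of the mitochondrial genome cannot be told apart at such identity. The median difference of all 139 members was 0.22, and 118 were above 0.

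For b'γζ against b'γ, 1 member was higher (S19-2) and 1 lower (L31-1), beside 8.2% and 10% of listed genes, and the median was 0.07. For the complemented line against b'γ, 1 was higher (S11-2 by 0.79, at an adjusted p of 0.0285) and 2 lower (S28-1 and S17-4), beside 8.12% and 10.5%, with a median of 0.13. By the 2-fold limit, 3 members differed between b'γζ and b'γ, 2 between b'γ sid2 and b'γ and 2 between the complemented line and b'γ, where 28.3%, 31.9% and 28% of listed genes did. RPL10C minus its b'γ value was -1.72, -1.73 and -1.54 in the other lines in line order (log2), past the 2-fold limit each time but not past the largest-error test.

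Of 10 members named for known leaf or growth phenotypes of their mutants or for TOR signalling, 7 were listed. In line order, the leaf-shape gene PFL (RPS18A) was at -0.02, 0.06, 0.33 and 0.20, ATRPS13A at 0.04, 0.09, 0.27 and 0.14, and RPS5A, which marks dividing cells, at 0.17, 0.03, 0.14 and 0.10. The leaf-polarity gene PGY1 (L10a-2) was at -0.35, 0.02, 0.03 and 0.03, and ATL5 (PGY3, L5-1, which binds 5S RNA) at -0.02, 0.03, 0.22 and 0.17. With RPS6A and RPL10A, given above, these are the 7, and RPS6A in b'γ sid2 was the 1 value past the largest-error test.

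Many members differed between leaf parts, and few passed for an interaction of leaf part and line. The authors' corrected interaction p was under 0.05 for 14 members (10.1%), where 42.4% of all listed genes passed. For leaf part itself it was under 0.05 for 58 members (41.7%), beside 54.1%. The genotype p was under 0.01 for 113 members (81.3%), beside 89.7%, and genotype F exceeded interaction F in 138 members (99.3%), beside 94.6%. The median ratio of interaction F to genotype F was 0.17 for members and 0.23 for all listed genes. Because genotype p chose the list, these ratios describe the listed genes. The direction of the leaf part effect and the basal fold changes were not analysed here.

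**Figure D4:**
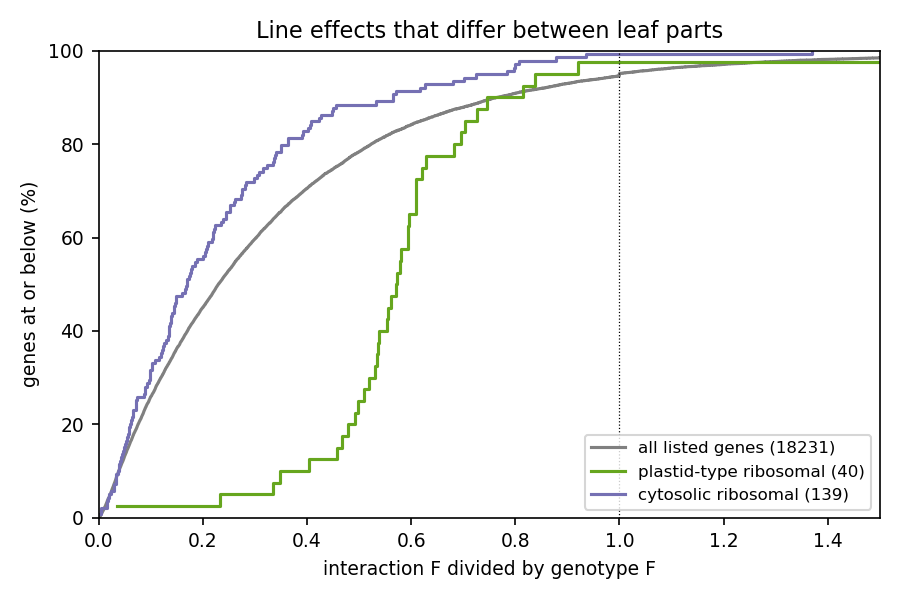
Share of genes (y axis, percent) at or below a given ratio of interaction F to genotype F (x axis), from the authors' p-values, for all listed, plastid-type and cytosolic ribosomal protein genes. The cytosolic curve lies left of the plastid-type curve, with median ratios of 0.17 and 0.57, and the dotted line marks equal F values.

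Genes of plastid-type ribosomes, described as 30S or 50S, lay lower in b'γ. The 40 such genes had medians of -0.98, 0.02, 0.22 and -0.03 in line order, and 18 of the 40 were at least 2-fold lower in b'γ, beside 16.2% of listed genes. Their interaction p was under 0.05 in 37 (92.5%), and their leaf part p in 5. By the largest-error test 1 of the 40 fell in b'γ; their median largest SE was 0.805 log2 units. The difference between the 2 sets has no test here.

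The other genes of the pathway were read from lists chosen with earlier results of these data known. For TOR signalling, 7 of 8 genes were listed, with medians of 0.58, 0.17, 0.20 and 0.26, and 1 of the 7 rose in b'γ by the largest-error test, beside 11.9% of all listed genes. This was RAPTOR1A, a subunit of the TOR complex, at 0.75 in b'γ, with an adjusted p of 0.0154. TOR was at 0.99 in b'γ and the S6 kinase gene S6K2 at 1.15 in b'γ and 1.31 in b'γζ, neither past that test.

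For the nucleolus and ribosome assembly, all 17 genes were listed, with medians of 0.06, 0.14, 0.13 and 0.19. In b'γ 3 of the 17 rose, beside 11.9% of listed genes: VNI1 (ANAC082, a factor of the nucleolar stress response) at 1.32, NOP58 (AT5G27120, a core protein of RNA-modifying particles) at 0.55 and APUM23 (a processing factor of ribosomal RNA) at 0.49. In b'γ sid2 NOP58 rose, at 0.61, and nucleolin 1 (ATNUC-L1, a regulator of ribosomal DNA) fell, at -0.57, where 4.95% of listed genes rose and 5.75% fell. The same shares stand beside the counts of the lists that follow.

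Of translation factors and ribosome-bound proteins, 14 of 15 were listed, with medians of 0.18, 0.10, 0.28 and 0.22. PAB2, a poly(A)-binding protein, rose in b'γ at 0.22, and the elongation factor genes AT1G07930 and AT5G60390 (eEF1A) rose in b'γ sid2 at 0.41 and 0.32. TCTP, a growth-related protein, was at -0.86 in b'γ and did not pass. The 10 acidic stalk proteins, which form the factor-binding stalk of the 60S subunit but lie outside the description rule, had medians of -0.11, 0.05, 0.25 and 0.09, and 1 rose in b'γ sid2, P0-1 (AT2G40010) at 0.68. Among 9 genes described as eukaryotic initiation factors the medians were 0.36, 0.06, 0.03 and 0.13; 1 rose in b'γ, and AT1G72340 fell in b'γ sid2 (-0.39) as well as in b'γζ (-0.33), where 2.29% of listed genes fell.

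The upstream windows of the members shared motifs that the description rule did not use. In the 250 bases before the annotated start, site II stood on either strand in 93 of the 132 cytosolic protein-coding members (70.5%), against 19.2% of 27438 protein-coding genes and 35% of the 40 plastid-type genes. The telo-box stood in 23 (17.4%), against 4.49% and 10%. Both stood together in 16 (12.1%), against 1.36% of protein-coding genes, and 1 pair of matches overlapped. The W-box (TTGACC or TTGACT), the element that WRKY factors of defence and senescence bind, stood in 26 (19.7%), against 28.4% and 22.5%.

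The 205 site II matches had a median position of -47 bases (quartiles -78 and -28), the 24 telo-box matches of -24, and the 33 W-box matches of -144. Of the 132 windows, 64 reach into another annotated gene, so part of what was searched may belong to a neighbour. Among the 8 members at least 1.5-fold from wild type in b'γ outside the chromosome 5 stretch, 5 windows held site II and 3 a W-box, against 88 (71.0%) and 23 (18.5%) of the other 124. Of the 8, RPL10C and L27-1, which was at -0.63 in b'γ, hold 2 W-box matches each and RPL3B holds 1. RPL10A, RPL10B, S15a-2, S27a-1 and S19-2 hold 0. L31-1, which is not among the 8, holds 1. The other 124 include S28-1 and S17-4 of the stretch, each with 0 site II and 1 W-box match. With 8 genes these shares are a description.

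**Figure D5:**
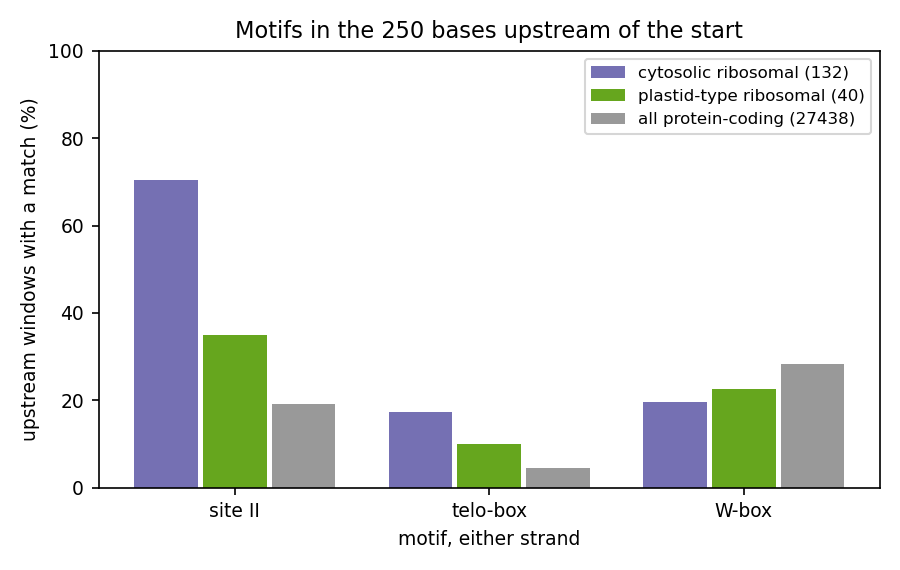
Share of upstream windows of 250 bases (y axis, percent) that hold a site II, telo-box or W-box match on either strand (x axis) in cytosolic ribosomal protein genes, plastid-type ribosomal protein genes and all protein-coding genes of TAIR10.1. Site II stands in 70.5% of the cytosolic windows and 19.2% of all.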

How the data were processed

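RNA of 50 libraries was measured, 5 in each of 10 groups, formed from the genotype and leaf part in the labels. Per the submitters' processing notes, bcl2fastq and DESeq were used with the TAIR10 build; versions were not given in the sources used here. The authors deposited 1 table of 18231 genes with 4 columns of log2 fold changes and 6 columns of p-values, uncorrected and corrected; 0 columns of other samples were present. The log base was read from the values, where low genes differ by steps of one doubling in one of the 5 libraries. The authors' deposited p-values test all lines at once, and their correction was read as Benjamini-Hochberg over 25801 genes. Depth is unknown, so no counting interval was computed.

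From the deposited p-values, F values were computed (4 and 40 degrees of freedom), which with the 4 fold changes bound each gene's residual variance (basal line means within 20 log2 units). This choice of degrees is an assumption, since the sources used here do not state them. Of 159 genes listed at 0 in 3 lines, 69 had genotype and interaction F equal within 2%. Equal p-values give equal F at any degrees that both terms share, so this check cannot decide the 40 degrees. The test and its bounds were tested on simulated data. Motifs were searched and coding sequences compared on the TAIR10.1 annotation with blastn 2.17.0. Python 3.11.15, numpy 2.4.6, scipy 1.17.1, pandas 2.3.3 and matplotlib 3.10.9 were used.

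Named members were those at least 2-fold from wild type, the 5 highest and 5 lowest in each line, the 5 families with the widest range in b'γ and 10 genes with known roles; members past the largest-error test, paralogs and members with an interaction were named after their values were seen. The members and lists were chosen with earlier results of these data known. Alternatives were other size limits and p thresholds, centring, other variances, a wider description rule and members left out. The interaction value of 1 member is not reported here.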

Additional observations from a re-analysis of the deposited data

Results flagged for a closer look

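For the following members the authors' deposited table gives an interaction of genotype and leaf part with a corrected p under 0.05, so their line differences were not the same in apical and basal parts. The corrected interaction p was 4.09e-08 for RPL10C (SAG24), 3.39e-06 for RPL3B (ARP2), 3.15e-05 for RPL10B, 0.00152 for RPL10A (SAC52) and 0.00348 for S15a-2 (rps15ab). It was 0.0195 for RPL18AA (L18a-1), which was at 0.42 in b'γ and -0.10 in b'γ sid2, 0.0226 for L35-1 (AT3G09500), 0.0247 for L35a-1 (AT1G07070) and 0.0251 for S20-1 (AT3G45030). It was 0.0374 for L13a-3 (AT4G13170), 0.0399 for S19-2 (AT5G15520), 0.0411 for L28-2 (AT4G29410) and 0.0476 for S4-2 (AT5G07090). In b'γ the 4 first and RPL18AA were above wild type and the others given here were below it, from -1.26 for S15a-2 to -0.25 for L28-2.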

How the results depend on the processing

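No paired analysis was possible because the deposited table holds no values per library; for the same reason no library could be left out and no depth was known. Under the alternatives, 82 values kept their reading and 32 moved. A count was said to keep its reading up to a 1.5-fold change, and a median at a change under 0.05 log2 units. Only a median could be labelled as reversed, since a count has no sign, and 0 medians were. The 2-fold counts of members were 5, 2, 2 and 0 in line order, and against b'γ 3 for b'γζ, 2 for b'γ sid2 and 2 for the complemented line. At 1.5-fold they were 12 in b'γ and 1 in the complemented line, and against b'γ 9, 13 and 12. Among the 18231 listed genes, the 1.5-fold limit was passed upward by 4833 and downward by 4915 in b'γ. In the complemented line 1225 passed it upward and 1380 downward. Against b'γ the upward and downward numbers were 4600 and 4191 for b'γζ and 4807 and 4592 for b'γ sid2. For the complemented line against b'γ they were 4323 and 4340. With the 2-fold limit and the largest-error test together, the b'γ count of members was 2. Against b'γ the member counts were 0, 1 and 1, beside 10.7%, 14.2% and 11% of listed genes. By the largest-error test at any size, an alternative chosen after seeing the data, the count was 10 in b'γ sid2 and 13 for b'γ sid2 against b'γ. Centred on all listed genes, the counts against b'γ were 1 for b'γ sid2 and 4 for the complemented line. Centred on the reference genes, they were 5, 4 and 7, and the medians of the 3 mutants were -0.22, 0.15 and 0.32, and against b'γ 0.36, 0.42 and 0.37. The wider description rule, which adds 30 genes such as the acidic proteins, gave 8 in b'γ and 1 in the complemented line, and against b'γ 5 for b'γζ and 4 for b'γ sid2. Without the mitochondrial-type genes and pseudogenes, left out after seeing the data, the count for b'γ sid2 against b'γ was 1. Without the chromosome 5 stretch the counts of the 3 mutants were 3, 0 and 0 in line order, and 1 for the complemented line against b'γ. With a corrected p under 0.01, 5 members had an interaction in place of 14. These moves follow from the limits, the shift and the members left out; no other cause was tested. Values are uncertain for 8 members whose coding sequence is at least 95% identical to that of another gene.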
